A study of Mus musculus with 5 samples.

Results

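RING1B peaks were examined at 50 homeobox genes of the LIM, POU, paired-like and sine oculis classes, the last with the genes Six2 to Six6, listed by gene family rather than by a threshold on any value of these data. The classes contributed 12 LIM, 5 sine oculis, 13 POU and 20 paired-like genes out of 22350 protein-coding genes annotated on the autosomes and the X chromosome. RING1B is the ubiquitin ligase subunit of Polycomb Repressive Complex 1 (PRC1), and its binding in mouse embryonic fibroblasts (MEFs) was profiled by ChIP-Seq, in which chromatin pulled down with an antibody is sequenced. The control cells were the parental line with floxed EED alleles, and EED is a core subunit of PRC2, the complex that methylates H3K27. The other groups were cells of this background transduced with lentivirus for stable expression of human EZHIP or of H3.3 K27M, both inhibitors of PRC2, and they therefore carry the floxed alleles too. The lentiviral vector named in the methods drives its insert from the EF1a promoter, and whether the transduced lines were clones is not given in the sources used here. Each group had 1 library, so no difference has a replicate check and no p-value was computed. The series has 5 samples, and those with H3.3 K27R and with EED deletion, the latter a single clone, were not analysed here.

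The deposited lists give the start and end of each peak on mm9 without a count or score, so the depth behind them is unknown. They held 821 control, 311 EZHIP and 286 H3.3 K27M peaks. The paper reports that RING1B and CBX2 kept their number and general distribution with either inhibitor. The list sizes differ from that statement, and the reason was not tested. The narrowest control peak spanned 1199 bases and the narrowest of each other list 399 bases, below the minimum size that the methods give, for which the sources used here give no reason. Whether the lists were called with the same settings is therefore not known, and every comparison of presence or width between lists carries that limit, which cannot be told apart from the groups. A peak was assigned to a gene when it overlapped the gene body or lay within 5000 bases of the annotated gene start. A gene without a peak may still bind RING1B below the limit of the peak caller. The lists hold no expression, so the fibroblast label could not be checked against transcripts. Of 8 fibroblast genes, Pdgfra had a control peak of 5399 bases and an EZHIP peak of 599 bases, and the other 7, among them Col1a1, Col3a1 and Vim, had none in any list, as did 96% of all protein-coding genes.

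Homeobox genes encode transcription factors that bind DNA through a homeodomain. LIM proteins add a pair of zinc-binding domains for cofactors, POU proteins add a second DNA-binding domain, sine oculis proteins add a protein-binding domain, and paired-like proteins have a homeodomain related to that of the PAX family. Most act in the specification of neurons, sensory organs, pituitary, kidney, limb or face. In cells where they are not used, many genes of this kind are classical Polycomb targets, with unmethylated CpG islands that carry H3K27me3 and PRC1.

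The following stretches show where RING1B remained or was lost at members on which the comparison turns. They were read from the plus strand of mm9 and each CpG is in capitals. The first lies in an EZHIP peak that, with that of Pou3f1, was the narrowest among members with peaks in all 3 lists, at chr17:86020001-86020182 in Six3, and the next lie at the centre of the EZHIP peaks in introns of Dmbx1 (chr4:115611150-115611449) and Alx1 (chr10:102489550-102489849). The last 2 are the centres of the widest control peaks whose genes had no peak in either other list, downstream of Otx1 (chr11:21894250-21894549) and in an intron of Isl2 (chr9:55390550-55390849).
Six3: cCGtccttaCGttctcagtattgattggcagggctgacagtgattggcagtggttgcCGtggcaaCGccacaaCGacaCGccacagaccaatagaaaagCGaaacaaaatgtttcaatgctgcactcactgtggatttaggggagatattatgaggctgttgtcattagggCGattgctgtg
Dmbx1: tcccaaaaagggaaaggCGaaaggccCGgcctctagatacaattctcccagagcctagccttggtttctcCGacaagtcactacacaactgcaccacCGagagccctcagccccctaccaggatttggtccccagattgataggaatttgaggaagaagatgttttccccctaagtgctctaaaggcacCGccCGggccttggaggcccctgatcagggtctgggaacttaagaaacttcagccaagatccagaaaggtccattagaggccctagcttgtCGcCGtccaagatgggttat
Alx1: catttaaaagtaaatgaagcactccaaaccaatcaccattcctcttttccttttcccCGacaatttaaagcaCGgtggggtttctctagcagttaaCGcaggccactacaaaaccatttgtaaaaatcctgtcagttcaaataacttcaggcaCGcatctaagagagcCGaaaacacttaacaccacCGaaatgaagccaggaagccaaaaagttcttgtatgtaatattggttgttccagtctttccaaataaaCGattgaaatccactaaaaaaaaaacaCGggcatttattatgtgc
Otx1: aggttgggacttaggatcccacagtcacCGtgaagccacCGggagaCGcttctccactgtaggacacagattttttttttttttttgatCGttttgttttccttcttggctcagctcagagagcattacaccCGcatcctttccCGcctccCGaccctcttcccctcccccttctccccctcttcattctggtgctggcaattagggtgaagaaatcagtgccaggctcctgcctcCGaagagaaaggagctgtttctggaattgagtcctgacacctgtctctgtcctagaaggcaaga
Isl2: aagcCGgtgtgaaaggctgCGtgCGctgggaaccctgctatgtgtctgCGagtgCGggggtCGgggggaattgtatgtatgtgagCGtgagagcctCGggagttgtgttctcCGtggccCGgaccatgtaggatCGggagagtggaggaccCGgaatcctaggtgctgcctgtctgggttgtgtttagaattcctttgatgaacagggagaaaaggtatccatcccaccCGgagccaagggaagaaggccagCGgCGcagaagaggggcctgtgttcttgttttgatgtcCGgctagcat
The stretch of Six3, the 182 bases of that peak outside untranslated sequence, held 8 CpG, and those of Dmbx1, Alx1 and Otx1 held 8 CpG in 300 bases each. The Otx1 stretch also lay in an H3.3 K27M peak that was assigned to no member, as given with the values of that gene. The Isl2 stretch held 16 and was the only one of these in CpG-island-like sequence. For comparison, the central 300 bases of all 821 control peaks held a median of 12 CpG, and 64.4% of them held at least 8. Peak centres of the other lists held medians of 5 (EZHIP) and 8 (H3.3 K27M). The EZHIP peak at Pou3f1 qualified for display but lay wholly in the 3′ untranslated part of the gene and is not printed.

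The first question was how many of these genes carried RING1B. In control MEFs, 30 of the 50 members had a peak (95% Wilson interval 46.2 to 72.4%), against 3.81% of all protein-coding genes. With EZHIP 19 members had a peak, against 1.32% of all protein-coding genes, and with H3.3 K27M 21 members had a peak, against 1.21%. No member had a peak in EZHIP or H3.3 K27M cells without a control peak, which 0.21% of all protein-coding genes did. A peak in all 3 lists was present at 17 members, against 0.765%, and 20 members had no peak in any list, against 96% of all protein-coding genes. Members with a control peak had a median gene length of 9769 bases, those without one 14213 bases and all protein-coding genes 15428 bases. When the gene body was left out and a peak within 5000 bases of the start was required, 30 members had a control peak, 18 an EZHIP peak and 21 an H3.3 K27M peak, against 3.54%, 1.17% and 1.1% of all protein-coding genes. The intervals cover counting error only and take these genes as a sample, although they were listed by family.

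**Figure D1:**
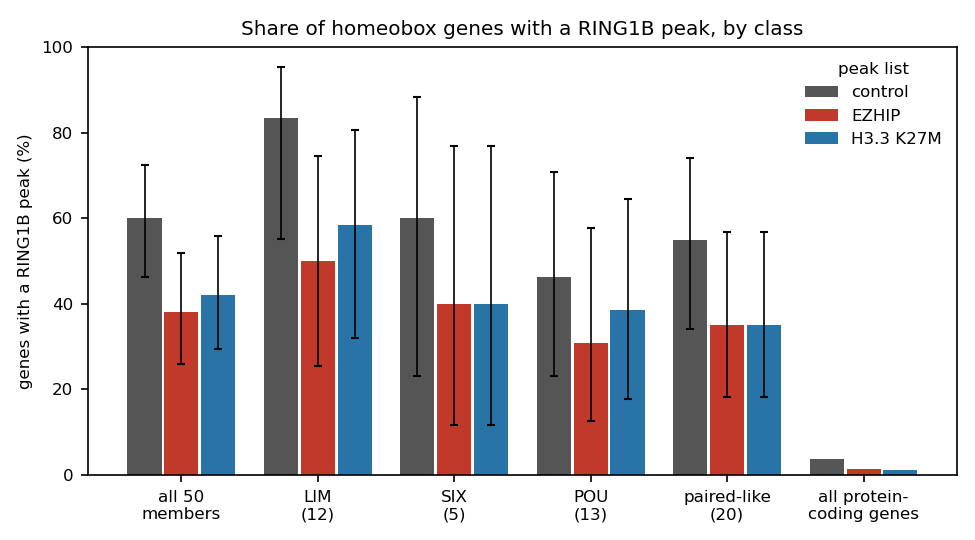
Percentage of genes with a RING1B peak in the control (grey), EZHIP (red) and H3.3 K27M (blue) lists, for all 50 members, for each class with its number of genes, and for all protein-coding genes. Lines are 95% Wilson intervals, and in each class the control share, from 46.2% for POU to 83.3% for LIM, was higher than the shares in the other lists.

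In every class more members had a control peak than a peak in either other list, and the intervals of the classes overlapped. Of the 12 LIM genes, 10 had a control peak, 6 an EZHIP peak and 7 an H3.3 K27M peak. Of the 5 sine oculis genes, 3 had a control peak and 2 a peak in each other list. Of the 13 POU genes, 6 had a control peak, 4 an EZHIP peak and 5 an H3.3 K27M peak. Of the 20 paired-like genes, 11 had a control peak, and 7 had a peak in each of the other lists. Within the POU class, peaks lay at 6 of the 7 Pou3f and Pou4f genes, which are mostly neural, and at 0 of the 6 genes of the Pou1f, Pou2f, Pou5f and Pou6f groups, a division chosen after the values were seen. The share over all protein-coding genes was 3.81%, so a count of 0 among 6 genes is no result about them. The exception among the former was the X-linked Pou3f4, which acts in the inner ear.

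The 20 members without a peak in any list span each class. Among LIM genes these were Lhx6, of cortical interneurons, and Lhx9, of the gonad. The sine oculis genes were Six4 and Six5. The POU genes were Pou1f1 of the pituitary, the octamer factors Pou2f1, Pou2f2 and Pou2f3, Pou3f4, the pluripotency factor Pou5f1, and Pou6f1. The paired-like genes were the organiser gene Gsc, the intestinal gene Isx, the photoreceptor gene Crx, Phox2a, the limb mesenchyme genes Prrx1, Prrx2 and Shox2, Vsx1 and Hesx1. The gene start closest to a control peak was that of Pou6f1, at 13.8 kb, and it was the only one with a control peak within 50 kb. The median distance from these 20 starts to the nearest control peak was 2129 kb.

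The second question was which control peaks had a counterpart in the lines with a PRC2 inhibitor. Of the 30 members with a control peak, 17 had one in both other lists and 7 had one in neither. The 17 became 10 when a peak had to hold the gene start, and the 7 became 4 when each list was limited to its widest 286 peaks. EZHIP alone had a counterpart at 2 members (9.17% of protein-coding genes with a control peak), and H3.3 K27M alone at 4 (8.46%). An EZHIP peak was thus present at 19 of 30 (63.3%), and 29.3% of the 851 protein-coding genes with a control peak had one. An H3.3 K27M peak was present at 21 of 30 (70.0%), against 28.6% of those genes. Both were present at 17 of 30 (56.7%), against 20.1%, and neither at 7 of 30 (23.3%), against 62.3%.

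The members' control peaks were wide, and width went with retention throughout the control list. The 31 control peaks at members had a median width of 13199 bases, and the 790 control peaks elsewhere 3299 bases. No peak was shared by 2 members, and Uncx was the single gene with 2 control peaks. Of the 31, 17 were at least 10000 bases wide, and of these 15 (88.2%, 95% Wilson interval 65.7 to 96.7%) overlapped an EZHIP peak. Elsewhere 102 of 142 control peaks of that width did (71.8%, interval 63.9 to 78.6%). An H3.3 K27M peak overlapped 16 of 17 (94.1%, lower bound 73.0%) at members and 116 of 142 (81.7%, interval 74.5 to 87.2%) elsewhere. From 5000 to under 10000 bases, 3 of 8 member peaks and 40 of 125 others overlapped an EZHIP peak, while 5 of 8 and 55 of 125 overlapped an H3.3 K27M peak. From 2000 to under 5000 bases, 1 of 4 member peaks and 45 of 287 others overlapped an EZHIP peak, and 1 of 4 and 33 of 287 an H3.3 K27M peak. The 2 narrower member peaks, at Pou4f2 and the second at Uncx, overlapped none, and of 236 other peaks of that width 16 overlapped an EZHIP peak and 1 an H3.3 K27M peak. Over all widths the intervals of member and other peaks did not overlap. The counts were 19 of 31 against 203 of 790 for EZHIP and 22 of 31 against 205 of 790 for H3.3 K27M. Within each width class the intervals overlapped, which 8 or fewer member peaks per class below 10000 bases made hard to avoid. From 2000 bases up, though not below, the share at members exceeded that elsewhere in each class and both lines. Member peaks were wider than others, and the part of width in their higher retention cannot be told apart with so few member peaks below 10000 bases.

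**Figure D2:**
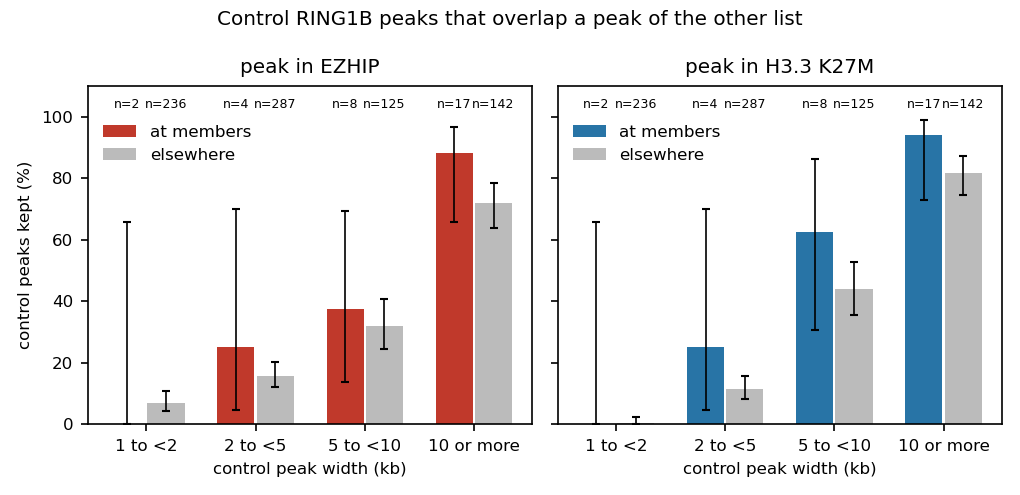
Percentage of control RING1B peaks that share at least 1 base with an EZHIP peak (left) or an H3.3 K27M peak (right), by control peak width in kb, for peaks at the 50 members (coloured) and elsewhere (grey). Lines are 95% Wilson intervals and n is the number of control peaks, and the share rose with width at members and elsewhere, to 88.2% and 71.8% for EZHIP in the widest class.

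The peaks that remained were narrower. At the 19 members with both, the ratio of summed EZHIP to control peak width had a median of 0.486 (quartiles 0.291 and 0.658), and it was below 1 at all 19. Over the 249 protein-coding genes with both peaks the median was 0.405, and 91.2% of them were below 1. At the 21 members with an H3.3 K27M peak, the median ratio was 0.718 (quartiles 0.534 and 0.830), and 20 were below 1. Over 243 protein-coding genes the median was 0.645, and 90.5% were below 1. EZHIP covered under 0.5 times the control at 10 of 19 members, against 56.2% of all such genes, and H3.3 K27M at 4 of 21, against 33.3%. The share at members thus lay near that of all genes for EZHIP and below it for H3.3 K27M. Each of the 19 EZHIP peaks lay wholly inside the control peak, as did 18 of 21 H3.3 K27M peaks, against 85.9% and 86.8% of the protein-coding genes with both peaks. The exceptions were Lhx5, Pou4f3 and Otx2, which reached 1400, 400 and 200 bases beyond the control peak.

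**Figure D3:**
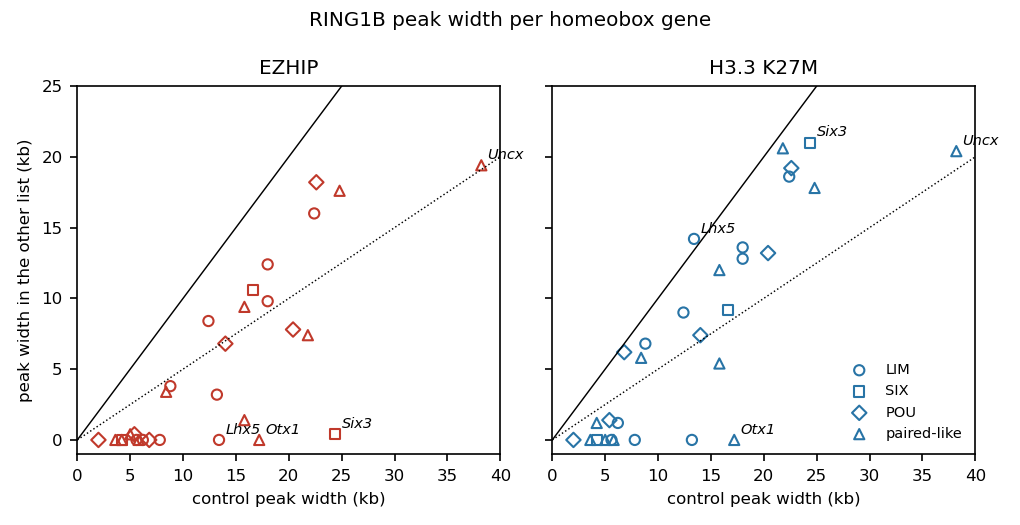
Summed RING1B peak width per gene in EZHIP (left) and H3.3 K27M (right) against the control, in kb, for the 30 members with a control peak. Symbols mark the class, the solid line marks equal width and the dotted line 0.5 times the control, a value of 0 means no peak, and only Lhx5 with H3.3 K27M lies above the solid line.

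EZHIP peaks were narrower than H3.3 K27M peaks at 16 of the 17 members with both, at a median of 0.783 times their width. Over the 171 protein-coding genes with a peak in all 3 lists the share was 70.8%, and the median ratio was also 0.783. Six6 was the exception. The EZHIP peak lay wholly inside the H3.3 K27M peak at 14 of 17 members, against 66.7% of those genes. The spread was large, from 0.0190 times at Six3 to 1.15 times at Six6.

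Among LIM genes, Isl1, which specifies motor neurons and also acts in heart and pancreas, had the widest peak. Its peak spanned 22399 bases in the control (chr13:117082801-117105199), 15999 in the EZHIP (chr13:117086401-117102399) and 18599 in the H3.3 K27M list (chr13:117084401-117102999). Lhx1, a gene of the head organiser and kidney, spanned 17999 bases in the control (chr11:84327201-84345199), 9799 with EZHIP (chr11:84330201-84339999) and 13599 with H3.3 K27M (chr11:84330001-84343599). Lhx4, of pituitary and motor neurons, spanned 17999 bases in the control (chr1:157576001-157593999), 12399 with EZHIP (chr1:157580001-157592399) and 12799 with H3.3 K27M (chr1:157579001-157591799). At each of these genes the gene start was covered in all 3 lists, and both other peaks lay inside the control peak.

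Lhx2, of eye and forebrain, was covered over 12399 bases in the control (chr2:38195001-38207399), 8399 with EZHIP (chr2:38195201-38203599) and 8999 with H3.3 K27M (chr2:38195601-38204599). Lhx8, of cholinergic neurons, was covered over 8799 bases in the control (chr3:153988401-153997199), 3799 with EZHIP (chr3:153991801-153995599) and 6799 with H3.3 K27M (chr3:153989601-153996399). Both kept peaks in all lists, with EZHIP the narrowest. The remaining 5 LIM genes with a control peak had none in at least 1 other list.

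Lhx5, a forebrain gene, had a control peak of 13399 bases and no EZHIP peak. Its H3.3 K27M peak spanned 14199 bases. It was the single member whose peak was wider than in the control, and its nearest EZHIP peak lay 626 kb from the gene start. Lmx1b, which patterns the dorsal limb, showed the opposite, with 13199 bases in the control, 3199 with EZHIP and no H3.3 K27M peak. Lmx1a, of the roof plate and dopaminergic neurons, had 6199 bases in the control, no EZHIP peak and 1199 bases with H3.3 K27M. Isl2 and Lhx3, both active in motor neurons, had control peaks of 7799 (chr9:55386801-55394599) and 5599 bases (chr2:26053201-26058799) and none in the other lists.

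Among sine oculis genes, the eye and forebrain factors Six3 and Six6 kept peaks in all lists, to very different extents. At Six3 the control peak spanned 24399 bases (chr17:86003801-86028199) and the H3.3 K27M peak 20999 bases (chr17:86005401-86026399). Its EZHIP peak spanned 399 bases (chr17:86020001-86020399), 0.0164 times the control width. A further EZHIP peak of 399 bases lay in the same control peak, 6748 bases before the gene and beyond the assignment limit. Six6 spanned 16599 bases in the control (chr12:74032401-74048999), 10599 with EZHIP (chr12:74037001-74047599) and 9199 with H3.3 K27M (chr12:74037601-74046799). The Six6 peaks of all 3 lists also held the start of the protein-coding gene 4930447C04Rik. Six2, of nephron progenitors, lies on the same chromosome as Six3 and had a control peak of 4199 bases (chr17:86084401-86088599), the narrowest of the class and the one without a counterpart.

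Among POU genes, Pou3f2, a neural factor also called Brn2, kept the largest part of its control peak in EZHIP cells. Its peak spanned 22599 bases in the control (chr4:22403601-22426199), 18199 with EZHIP (chr4:22405001-22423199) and 19199 with H3.3 K27M (chr4:22405001-22424199). Pou3f3, its neural and renal relative, spanned 13999 bases in the control (chr1:42748601-42762599), 6799 with EZHIP (chr1:42750401-42757199) and 7399 with H3.3 K27M (chr1:42750201-42757599). Pou3f1, known from Schwann cells, spanned 5399 bases in the control (chr4:124333801-124339199), 399 with EZHIP (chr4:124337001-124337399) and 1399 with H3.3 K27M (chr4:124336601-124337999). The ratio to the control width in EZHIP cells thus fell from 0.805 at Pou3f2 to 0.486 at Pou3f3 and 0.0739 at Pou3f1, in the order of their control widths.

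Pou4f1, of sensory neurons, had 20399 bases in the control (chr14:104853401-104873799), 7799 with EZHIP (chr14:104856201-104863999) and 13199 with H3.3 K27M (chr14:104856201-104869399). The EZHIP peak at Pou4f1 lay from the gene towards its 3′ side and missed the gene start by 3.22 kb. Pou4f3, of inner ear hair cells, had 6799 bases in the control, no EZHIP peak and 6199 bases with H3.3 K27M. Pou4f2, of retinal ganglion cells, had the narrowest control peak of a member, at 1999 bases (chr8:80957801-80959799), and none in the other lists. Each of the 3 Pou4f genes thus had a different pattern, and the one with the widest control peak had a peak in all lists.

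Among paired-like genes, Uncx, which patterns the somites, had the widest control coverage of all members. Its main peak spanned 36199 bases (chr5:140008201-140044399), the 13th widest of 821 control peaks, and a second peak of 1999 bases lay in the annotated gene body. The EZHIP and H3.3 K27M peaks at Uncx spanned 19399 (chr5:140014601-140033999) and 20399 bases (chr5:140013801-140034199). Otp, of the hypothalamus, spanned 24799 bases in the control (chr13:95637401-95662199), 17599 with EZHIP (chr13:95639401-95656999) and 17799 with H3.3 K27M (chr13:95639401-95657199). At both genes the EZHIP peak covered over 0.5 times the control and was slightly narrower than the H3.3 K27M peak.

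Otx2, of forebrain and midbrain, spanned 21799 bases in the control (chr14:49273001-49294799), 7399 with EZHIP (chr14:49282801-49290199) and 20599 with H3.3 K27M (chr14:49272801-49293399). Pitx1, of the hindlimb, spanned 15799 bases in the control (chr13:55925001-55940799), 9399 with EZHIP (chr13:55927601-55936999) and 11999 with H3.3 K27M (chr13:55926801-55938799). Dmbx1, of the midbrain, spanned 15799 bases in the control (chr4:115601201-115616999), 1399 with EZHIP (chr4:115610601-115611999) and 5399 with H3.3 K27M (chr4:115607601-115612999). Alx1, of facial mesenchyme, spanned 8399 bases in the control (chr10:102487601-102495999), 3399 with EZHIP (chr10:102488001-102491399) and 5799 with H3.3 K27M (chr10:102487801-102493599). EZHIP had the narrowest peak at each of these 4 genes, and at Dmbx1 both lines covered under 0.5 times the control.

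Otx1, the forebrain relative of Otx2, had a control peak of 17199 bases (chr11:21885801-21902999) and no peak in the other lists by the assignment rule. An H3.3 K27M peak of 3599 bases lay inside the control peak, 167 bases beyond the 3′ end of the gene (chr11:21891001-21894599), and so belonged to no member. Counting it raised the members with an H3.3 K27M peak from 21 to 22 and lowered those with a peak in neither list from 7 to 6. Otx1 had the widest control peak among the 7 members with none in the other lists, and the others ranged from 1999 to 7799 bases. These others were Isl2, Lhx3, Six2, Pou4f2, Alx4 of the limb and face with 5799 bases, and Drgx of dorsal root ganglion neurons with 3599 bases (chr14:33409601-33413199). Rax, of the eye field, had 4199 bases in the control, no EZHIP peak and 1199 bases with H3.3 K27M. Pitx3, of lens and dopaminergic neurons, had 4999 bases in the control, 399 with EZHIP and no H3.3 K27M peak, and its control peak also held the start of Gbf1.

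**Figure D4:**
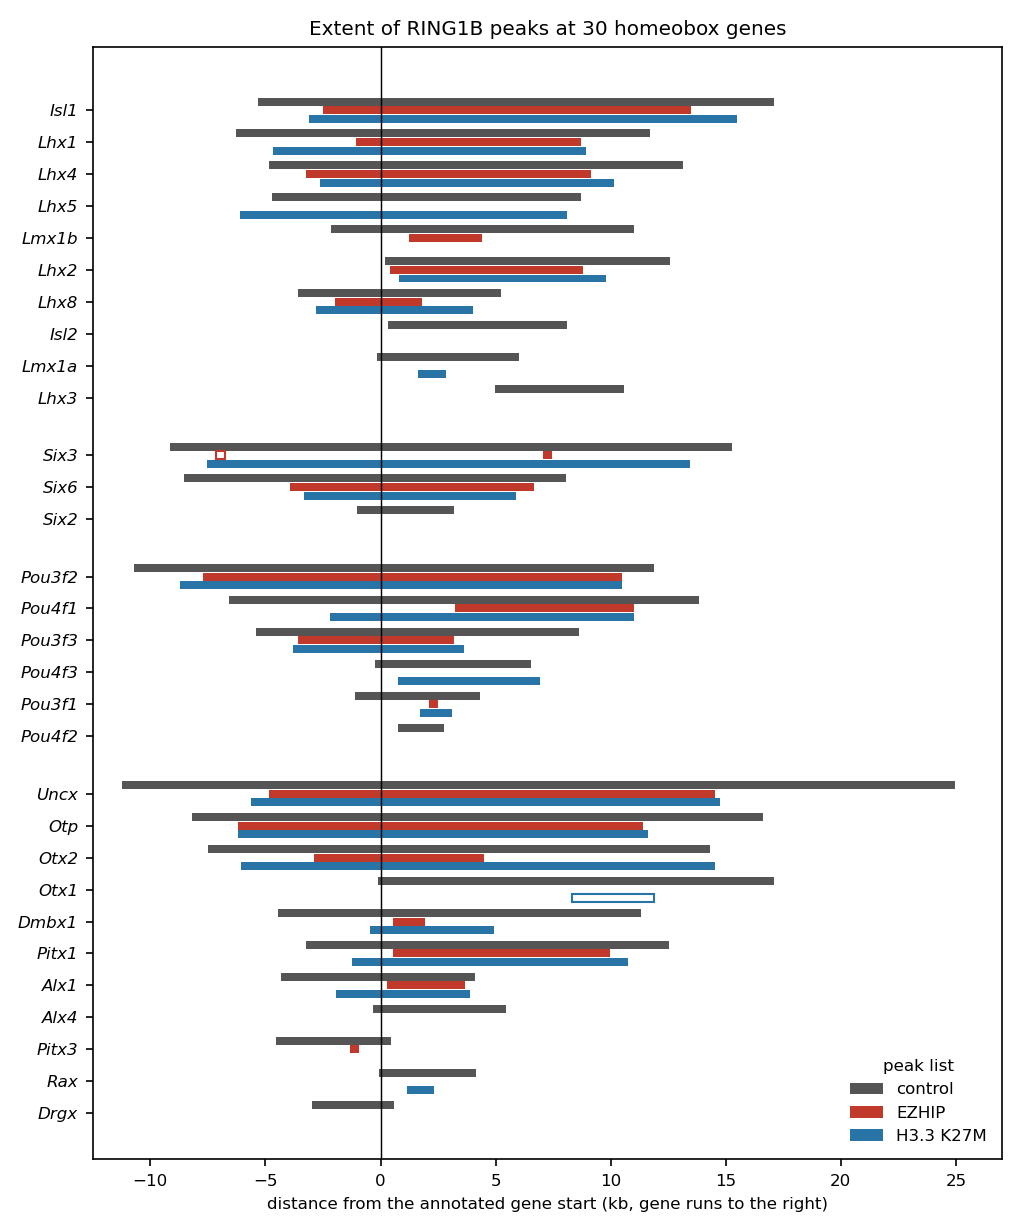
Extent of RING1B peaks at the 30 members with a control peak, in kb from the annotated gene start with the gene running to the right, grouped by class (LIM, sine oculis, POU, paired-like) and ordered by control width. Filled bars are assigned peaks in the control (grey), EZHIP (red) and H3.3 K27M (blue) lists, outlined bars at Six3 and Otx1 are peaks inside the control peak but beyond the assignment limit, and the second control peak of Uncx is off the scale.

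The third question was which part of each domain remained. The gene start lay in the peak at 26 of 30 members in the control, at 10 of 19 with EZHIP and at 16 of 21 with H3.3 K27M, which compares with 74.1%, 45.2% and 61.5% of the protein-coding genes that had a peak in the same list. Over all protein-coding genes, with or without a peak, the shares were 2.82%, 0.595% and 0.743%. When the start of any annotated transcript of the gene sufficed, the counts were 29 of 30, 13 of 19 and 17 of 21. The share over all protein-coding genes was not computed for this rule, so these counts are no result about the members. The EZHIP peak held no transcript start at 6 members, namely Lmx1b, Pou3f1, Pou4f1, Alx1, Dmbx1 and Pitx3. With H3.3 K27M these were Lmx1a, Pou3f1, Pou4f3 and Rax. A peak that no longer covered a start was thus found in both lines, and Pou3f1 was common to both.

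Both edges of the domain drew in. Relative to the control, the upstream edge of the EZHIP peak lay a median of 3400 bases closer to the peak's interior and the downstream edge 3600 bases, and every edge moved inward at the 19 members. With H3.3 K27M the medians were 2000 bases upstream and 1800 bases downstream, and the edges moved inward at 20 and 19 of 21 members. Edges were not measured over all protein-coding genes. The inward counts largely restate the nesting of peaks inside the control peak. That nesting held at 85.9% (EZHIP) and 86.8% (H3.3 K27M) of protein-coding genes with both peaks. The upstream edge moved more than the downstream edge at 9 of 19 members with EZHIP and at 9 of 21 with H3.3 K27M, so neither side was favoured. Peak edges move in steps of 200 bases, the bin size of the lists.

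CpG content was compared between control bases that were also covered in a line and control bases that were not. In EZHIP cells the covered parts held a median of 3.26 CpG per 100 bases and the uncovered parts 2.25, with the covered part higher at 12 of 19 members. The median of 3.26 was the value of Six3, whose covered part here was 798 bases. It took in the EZHIP peak beyond the assignment limit, which the widths and edges of Six3 leave out. In H3.3 K27M cells the medians were 3.34 and 1.74, with the covered part higher at 13 of 21. At control peaks elsewhere the covered part was higher at 108 of 198 peaks with EZHIP and at 155 of 198 with H3.3 K27M. Pou3f3 showed the largest difference in favour of the covered part with EZHIP, with 7.30 CpG per 100 bases in the part covered with EZHIP and 1.35 in the rest. CpG-island-like sequence made up 75% of the former and none of the latter. Other members showed the opposite. At Lhx2 the part covered with EZHIP held 1.12 CpG per 100 bases and the rest 5.35. At Lhx5 the part covered with H3.3 K27M held 3.87 and the rest, 600 bases, 8.83, and at Pou4f3 these values were 3.12 and 7.2. The uncovered part was richer with EZHIP at Lhx2, Lmx1b, Pou3f1, Pou3f2, Pou4f1, Pitx1 and Pitx3. The members in which the uncovered part was richer with H3.3 K27M were Lhx2, Lhx5, Lmx1a, Pou3f1, Pou3f2, Pou4f3, Otx2 and Rax.

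**Figure D5:**
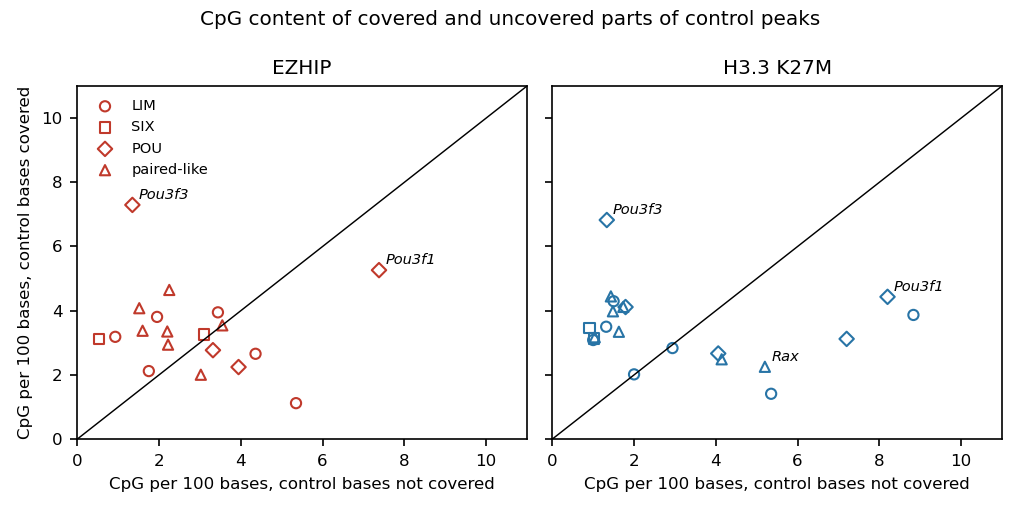
CpG per 100 bases in the parts of each member's control peak that were covered in EZHIP (left, 19 members) or H3.3 K27M (right, 21 members), on the vertical axis, against the parts that were not covered. Symbols mark the class, and points above the line, 12 for EZHIP and 13 for H3.3 K27M, are members whose covered part was richer in CpG.

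Gene starts of members with a control peak were CpG-rich. The sequence within 500 bases of the start held a median of 6.69 CpG per 100 bases at the 30 members with a control peak and 3.95 at the 20 members without one. All protein-coding genes had a median of 4.10, and the 851 with a control peak 6.59. The start lay in CpG-island-like sequence at 23 of 30 members with a control peak and at 8 of 20 without. For all protein-coding genes the share was 49.1%, and for those with a control peak it was 74.1%, close to the 76.7% of members with a control peak. Among members with peaks in all 3 lists this was the case at 15 of 17, and among the 7 with a control peak alone at 4. CpG-rich starts were also found at members with no peak in any list, such as Pou2f1 with 10.7 CpG per 100 bases, Six5 with 9.59 and Gsc with 9.19.

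Genes of cofactors of these proteins were counted in the same way, beside the 3.81% of all protein-coding genes with a control peak and the 96% with none in any list. Of 9 LIM cofactor genes, Lmo2 had a peak, of 2999 bases in the control and 1599 in both other lists, and none of the 6 cofactor genes of sine oculis proteins, from the Eya and Dach families, had a peak in any list. Of 3 SOX partners of POU proteins found, Sox2 had a peak, with 24999 bases in the control, 4599 with EZHIP and 3599 with H3.3 K27M.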

How the data were processed

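RING1B chromatin was crosslinked, digested with micrococcal nuclease, immunoprecipitated and sequenced, with 1 library per group. Per the methods and the submitters' processing notes, the authors aligned reads to mm9 with Bowtie 1.0.0 at default parameters and called broad peaks per library with MOSAiCS-HMM, which joins enriched bins across gaps, so a wide peak may hold gaps and widths depend on depth and threshold. The deposited lists hold peak positions, without counts or scores, so depth and precision are unknown. Groups follow the cell type label of each sample. Genes came from GENCODE vM1 on NCBIM37, the assembly of mm9, and all 1418 peaks ended within its chromosomes. Of the 50 members, 49 were found under their symbol and Drgx under its older name Prrxl1. Width counts the bases from a peak's start to its end, both included in the positions printed, and was summed over a gene's peaks. Windows of 500 bases, taken every 100, counted as CpG-island-like at a G and C content of 55% or more and a CpG ratio, observed over expected, of 0.65 or more. Scripts ran in Python 3.11.15 (pandas 2.3.3, numpy 2.4.6, matplotlib 3.10.9), shares have Wilson intervals from scipy 1.17.1, and gene assignment was tested on simulated peaks. The members were listed by family, but this set, the other lists and the alternatives were chosen with earlier results of these data known. Every member was named, with positions for those with a peak in all lists and for the 3 widest and the narrowest control peaks of each class. Sequences shown were the central 300 bases, outside untranslated regions, of the narrowest EZHIP or H3.3 K27M peak of a member with a peak in all lists, for the 4 members in which that peak was narrowest, and of the 2 widest control peaks whose genes had none in the others. Counts for further genes of the same classes are not reported here.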

Additional observations from a re-analysis of the deposited data

How the results depend on the processing

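The 9 counts and ratios for the members were recomputed under 10 alternatives, which gave 72 values, and a value was taken as changed when it moved by more than 1.5 times. Of these, 68 stayed within that limit and 4 moved. A change of direction was defined only for the width ratios, and none of those showed one. When a peak had to hold the gene start, 10 members had an EZHIP peak, 10 members with a control peak kept one, and 10 kept a peak in both other lists. When each list was cut to its widest 286 peaks, 4 members with a control peak had none in the other lists, since Six2, Pou4f2 and Drgx, each with a control peak alone, then had none. Pitx3 and Rax also had no control peak under that limit. Under a common minimum of 1000 bases, Six3, Pou3f1 and Pitx3 lost their EZHIP peaks and 16 members kept one. The median width ratio to the control ranged from 0.486 to 0.607 for EZHIP and from 0.714 to 0.773 for H3.3 K27M. The main EZHIP value, 0.486, was the lowest of its range, and with a common minimum of 1000 bases it was 0.526. The lists hold no depth, so a peak missing from a line may be a matter of depth, which was not tested. No paired analysis was possible because each group has 1 library and no result comes from a test.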
